A study of Mus musculus with 10 samples.

Results

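The androgen response genes described here are 32 human genes whose transcripts are known to rise in response to androgen, with the kallikreins, the STEAP metalloreductases and the prostate lineage factors left out. They were chosen by name, with earlier results of these data known. All 32 were found among the 58735 genes of the count table, and all 32 were abundant enough to be among the 16913 genes that were tested. The samples were subcutaneous tumours of LNCaP, an established human prostate cancer cell line that depends on androgen, grown in NSG mice (NOD.Cg-Prkdcscid Il2rgtm1Wjl/SzJ), which lack T, B and NK cells of their own. Every mouse received sipuleucel-T (sip-T), a product made from human blood cells that are cultured with a prostate antigen fusion protein, as 4 weekly intraperitoneal injections of 5000000 cells in 100 µl. In 5 control tumours the mice had control sip-T alone. In 5 others, called IL-15 tumours, 1 µg of recombinant human IL-15 was added, an interleukin on which T and NK cells depend for survival. According to the design text both the cells and the mice were exposed to IL-15, whereas each IL-15 sample is labelled as control sip-T with IL-15, so exposure of the cells and dosing of the mice cannot be told apart. The IL-15 was given under the skin, and control mice were dosed with PBS, the vehicle. Tumours were collected 7 days after the last injection. Both groups come from 1 cell line and received sip-T, and the labels give neither the sex nor the age of the mice. No group was given or deprived of androgen, so the data describe the levels of these genes and do not test their response to the hormone. The labels do not state that each tumour came from a separate mouse, and p-values therefore measure the spread between these libraries.

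Androgens such as testosterone and dihydrotestosterone are steroid hormones that act on transcription. In the prostate they raise the transcripts of a set of genes that serve secretion, lipid synthesis, protein folding and growth. Many of these genes also answer to other signals. FKBP5 and SGK1 are classical targets of the glucocorticoid receptor, and NDRG1 is induced by low oxygen.

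The libraries held 13560224 to 19324056 counts each. Levels are given as CPM (counts-per-million, corrected with edgeR's TMM factors) when tumours are compared. They are given as FPKM (fragments per kilobase of gene length, scaled by 1 factor per library, as deposited) when genes are compared. A floor of 3 counts lay between 0.155 and 0.221 CPM, for counting error only. The luminal prostate genes were present in every tumour, with KLK3, the PSA gene, at 3330 to 7450 CPM. NR3C1, the glucocorticoid receptor gene, stood at 1.00 to 7.56 CPM. A list of 16 T and NK cell genes summed to 4.45 to 30.5 CPM in control tumours and 9.04 to 74.7 CPM in IL-15 tumours, 10 B and myeloid cell genes to at most 3.99 CPM, and MS4A1, a B cell marker, had 0 counts. All 6 T and NK genes that passed the low count filter had fold changes above 0, where 49.0% of tested genes did. Some passed it mainly through the IL-15 tumours, so their direction was partly set by the filter. Of the 6, edgeR called 0 and DESeq2 called 1, against 0.0% and 0.0714% of all genes. Of the 9 genes of the stroma and endothelium list, 4 were tested and 0 called, and the other 5 had a mean under 1 CPM. The list summed to 33.9 to 108 CPM, mostly from COL1A1, VWF and COL3A1. COL1A2 reached at most 0.213 CPM and PECAM1 0.547 CPM, so the sum rests on a few genes of the list. The counts are of human genes while the tumours grew in mice, and removal of mouse reads is not stated. The sum therefore cannot be read as the amount of host stroma. None of the 8 luminal prostate genes was called. Fewer tumour cells and less RNA per tumour cell cannot be told apart in bulk RNA.

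The 32 genes covered a wide range of abundance. By median FPKM over the 10 tumours, 19 stood above 10 and 2 below 1. ELOVL5, a fatty acid elongase gene, was the most abundant of the 32 (241 FPKM). It was followed by TMPRSS2, which encodes a membrane serine protease (134 FPKM), by the stress-response gene NDRG1 (126 FPKM) and by PLPP1, a phospholipid phosphatase gene (106 FPKM). UAP1 (59.0 FPKM) and TSC22D1 (56.4 FPKM) came next. The co-chaperone gene FKBP5 had a median of 19.0 FPKM. The scarcest were INPP4B, a phosphoinositide phosphatase gene (0.338 FPKM), HPGD, which encodes the enzyme that inactivates prostaglandins (0.405 FPKM), and the steroid-inducible kinase gene SGK1 (1.48 FPKM). The 10 tumours spread most widely for HPGD, SGK1 and AZGP1.

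**Figure D1:**
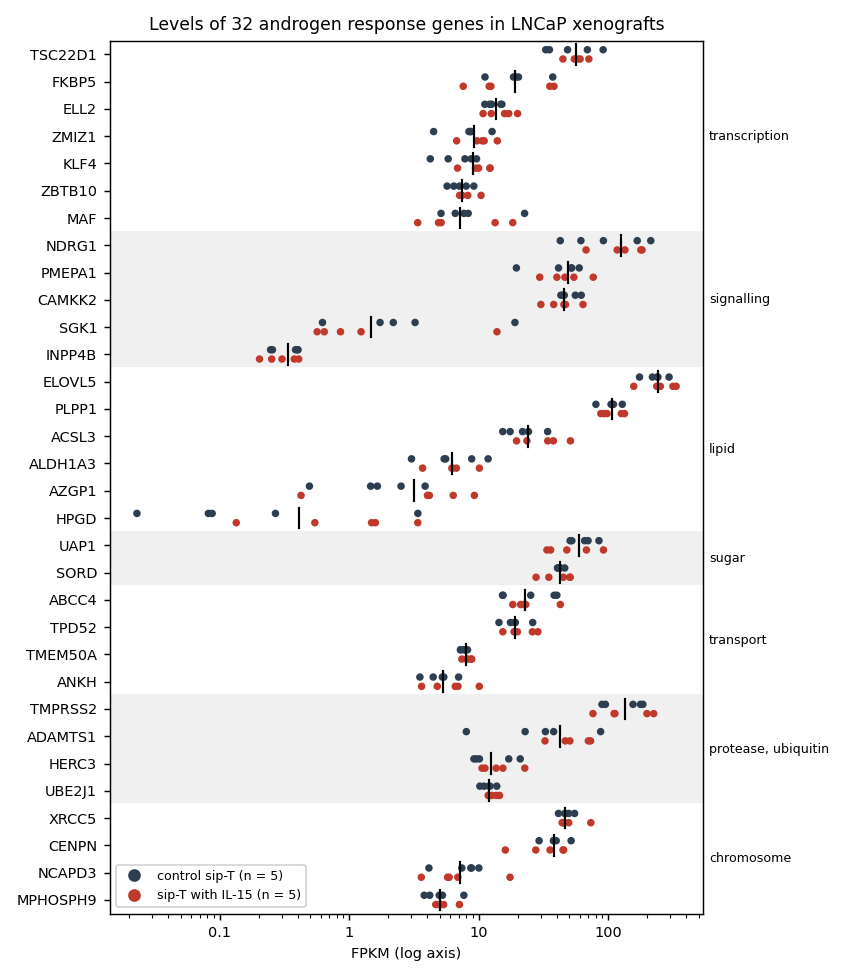
FPKM (log axis) of the 32 genes in each tumour, grouped by role, with control tumours in dark blue, IL-15 tumours in red and a black line at the median of the 10 tumours. The medians run from 0.338 (INPP4B) to 241 FPKM (ELOVL5), and the points of HPGD and SGK1 spread most widely.

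Setting IL-15 against control tumours addresses whether the added cytokine changed these transcripts. None of the 32 genes passed edgeR's quasi-likelihood test at a Benjamini-Hochberg adjusted p of 0.05, where 0.0% of the 16913 tested genes passed. At an unadjusted p under 0.05 edgeR took 1 of the 32, KLF4, against 6.46% of tested genes. DESeq2 called 0 of the 31 members it gave an adjusted p, against 0.0714% of all genes, and limma voom called 0, against 0.0%. At an unadjusted p under 0.05, limma voom took 1054 of the 16913 tested genes. DESeq2 took 1683 from a larger set of genes, of which 21021 had an adjusted p. The members among these were not counted. No member had all 5 IL-15 tumours above or all below the 5 control tumours, a separation seen upward in 0.349% and downward in 0.313% of tested genes. Fold changes were above 0 for 22 of the 32 and below 0 for 10, where 49.0% of tested genes were above 0. The median log2 fold change was 0.13, against -0.0060 over all tested genes. Scaling by library size alone moved all genes upward, to 62.7% above 0 and a median of 0.077, and 26 of the 32 were then above 0. Counted against the median of all genes, 22 of the 32 lay above it with TMM and 22 with library size alone. Without IL-15 tumour 4 the count was 16 of 32 and the median 0.010, so the count above 0 rested on that tumour. Log2 fold changes are IL-15 over control and carry edgeR's standard error.

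**Figure D2:**
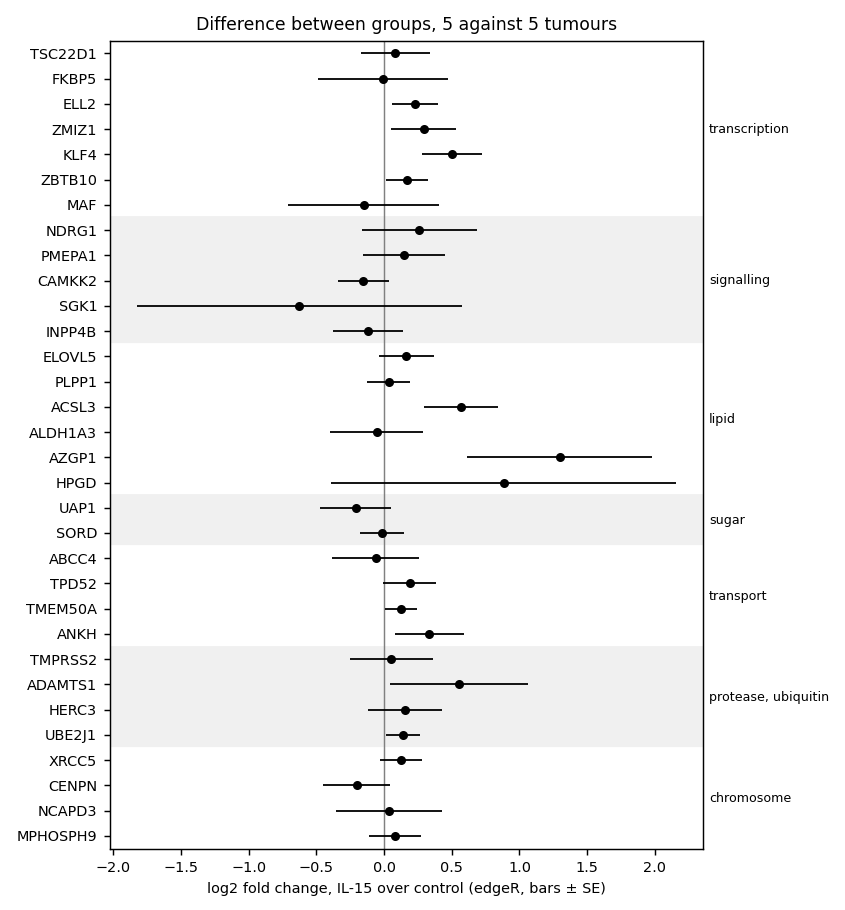
Log2 fold change of IL-15 over control tumours for the 32 genes, grouped by role, with bars of ± 1 standard error (edgeR, n = 5 against 5). AZGP1 lies furthest to the right (1.30 ± 0.68), SGK1 furthest to the left (-0.62 ± 1.2), and the bars of SGK1 and HPGD are the longest.

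Among the 7 genes grouped under transcription, FKBP5 included although its product is a co-chaperone, 5 had fold changes above 0 and none passed the test. FKBP5 encodes a co-chaperone of the HSP90 complexes that hold steroid receptors (ENSG00000096060, chromosome 6, 35573585 to 35728583 on hg38). It measured 231, 216, 128, 234 and 438 CPM in control tumours 1 to 5 and 147, 414, 91.3, 449 and 139.8 CPM in IL-15 tumours 1 to 5. Control tumour 5 and IL-15 tumours 2 and 4 were high, and the IL-15 tumours held both the lowest and the highest value (log2 fold change -0.0079 ± 0.48, edgeR adjusted p = 0.998). MAF, a basic leucine zipper transcription factor gene (ENSG00000178573, chromosome 16, 79585843 to 79600714), measured 51.2, 58.8, 38.6, 62.8 and 174 CPM in control tumours 1 to 5 and 39.8, 141, 26.6, 103 and 37.3 CPM in IL-15 tumours 1 to 5. The same 3 tumours held its highest values, and its fold change was -0.15 ± 0.56 on the log2 scale. KLF4, a zinc finger transcription factor gene (ENSG00000136826, chromosome 9, 107484852 to 107490482), measured 23.7, 16.95, 34.6, 38.2 and 31.7 CPM in control tumours 1 to 5 and 27.9, 40.1, 50.7, 38.3 and 48.7 CPM in IL-15 tumours 1 to 5. IL-15 tumours 2 to 5 lay above every control tumour, 2 and 4 only just, and IL-15 tumour 1 lay within the control range. Its group means were 29.0 ± 8.60 CPM over the control tumours and 41.1 ± 9.12 CPM over the IL-15 tumours (SD, n = 5 each). The log2 fold change was 0.50 ± 0.22, with an unadjusted edgeR p of 0.0406 and an adjusted p of 0.758.

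ELL2, an elongation factor gene for RNA polymerase II (ENSG00000118985, chromosome 5, 95885098 to 95962071), measured 91.0, 119, 96.2, 120.1 and 102 CPM in control tumours 1 to 5 and 102, 137, 131, 162 and 86.4 CPM in IL-15 tumours 1 to 5. IL-15 tumours 2, 3 and 4 exceeded every control tumour while IL-15 tumour 5 was the lowest of all (log2 fold change 0.23 ± 0.17). ZMIZ1, which encodes a transcriptional coactivator (ENSG00000108175, chromosome 10, 79069035 to 79316528), measured 104, 105, 103, 152 and 54.8 CPM in control tumours 1 to 5 and 135, 82.0, 121, 130.01 and 168 CPM in IL-15 tumours 1 to 5. Control tumour 5 was the lowest and IL-15 tumour 5 the highest, with a log2 fold change of 0.29 ± 0.24. TSC22D1, a leucine zipper protein gene (ENSG00000102804, chromosome 13, 44432143 to 44577147), measured 315, 331, 642, 852 and 461 CPM in control tumours 1 to 5 and 427, 669, 589.9, 553 and 514 CPM in IL-15 tumours 1 to 5. Both the lowest and the highest values were from control tumours, and the log2 fold change was 0.082 ± 0.25. ZBTB10, a zinc finger repressor gene, ranged over 62.9 to 117 CPM with a log2 fold change of 0.17 ± 0.16.

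Among the signalling genes, 2 of 5 had fold changes above 0 and none passed the test. NDRG1, a stress-response gene (ENSG00000104419, chromosome 8, 133237171 to 133302022), measured 467, 663, 2267, 1786 and 997 CPM in control tumours 1 to 5 and 737, 1931, 1305, 1987 and 1446 CPM in IL-15 tumours 1 to 5. Its lowest and highest values were both from control tumours (log2 fold change 0.26 ± 0.42, edgeR adjusted p = 0.921). SGK1 encodes a serine kinase that steroids induce in many tissues (ENSG00000118515, chromosome 6, 134169246 to 134318112). It measured 6.91, 35.3, 18.7, 206 and 24.2 CPM in control tumours 1 to 5 and 6.27, 152, 9.67, 7.10 and 13.5 CPM in IL-15 tumours 1 to 5. Control tumour 4 and IL-15 tumour 2 stood more than 4 times above each of the other 8 tumours, which lay between 6.27 and 35.3 CPM. Each group thus held 1 high tumour, and the log2 fold change of -0.62 ± 1.2 turned to 0.83 without control tumour 4 and was -2.68 without IL-15 tumour 2. The T and NK cell list summed to 4.54 CPM in control tumour 4 and 9.04 CPM in IL-15 tumour 2. Its part in the SGK1 level was not tested. DESeq2 gave SGK1 no adjusted p.

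PMEPA1, whose product dampens TGF-beta signalling, ranged over 119 to 477 CPM, with control tumour 3 lowest and IL-15 tumour 4 highest (log2 fold change 0.15 ± 0.30). CAMKK2, the gene of a kinase that activates AMPK, ranged over 237 to 491 CPM (log2 fold change -0.15 ± 0.19). INPP4B was scarce, at 3.24 to 6.34 CPM or 52 to 119 counts per library, with a log2 fold change of -0.12 ± 0.26.

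The 6 genes of lipid, prostaglandin and retinoid metabolism and secretion held the largest fold changes above 0, with 5 above 0 and none past the test. AZGP1 encodes a secreted zinc-binding glycoprotein of seminal fluid (ENSG00000160862, chromosome 7, 99966720 to 99976157). It measured 7.56, 4.87, 1.44, 11.3 and 4.36 CPM in control tumours 1 to 5 and 12.1, 12.3, 19.4, 27.7 and 1.25 CPM in IL-15 tumours 1 to 5. IL-15 tumours 1 to 4 lay above every control tumour, and IL-15 tumour 5 below all of them. The group means were 5.90 ± 3.71 CPM over the control tumours and 14.5 ± 9.79 CPM over the IL-15 tumours (SD, n = 5 each), with a log2 fold change of 1.30 ± 0.68 (edgeR adjusted p = 0.774). ACSL3, a long-chain acyl-CoA synthetase gene (ENSG00000123983, chromosome 2, 222860934 to 222944639), measured 275, 139, 120.1, 171 and 194 CPM in control tumours 1 to 5 and 275, 300.5, 193, 409.9 and 155 CPM in IL-15 tumours 1 to 5. IL-15 tumours 2 and 4 were the only ones above every control tumour, apart from which the groups overlapped (log2 fold change 0.57 ± 0.27, edgeR adjusted p = 0.772).

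HPGD (ENSG00000164120, chromosome 4, 174490177 to 174523154) measured 20.9, 0.494, 0.137, 0.523 and 1.64 CPM in control tumours 1 to 5 and 9.79, 3.30, 9.30, 20.7 and 0.809 CPM in IL-15 tumours 1 to 5. Control tumour 1 and IL-15 tumour 4 were the highest, at 326 and 289 counts. In 4 tumours it had 11 counts or fewer, and control tumour 3 had 2, under the floor of 3 counts. Its log2 fold change of 0.88 ± 1.27 (edgeR adjusted p = 0.912) ranged from 0.29 without IL-15 tumour 4 to 3.64 without control tumour 1. ELOVL5, whose product elongates polyunsaturated fatty acids (ENSG00000012660, chromosome 6, 53267398 to 53349179), measured 1021, 730.2, 905, 1222 and 1021 CPM in control tumours 1 to 5 and 1006, 1326, 1091, 1415 and 656 CPM in IL-15 tumours 1 to 5. IL-15 tumours held both the 2 highest values and the lowest (log2 fold change 0.17 ± 0.20). PLPP1 (ENSG00000067113, chromosome 5, 55424854 to 55535050) measured 181, 243, 234, 281 and 235 CPM in control tumours 1 to 5 and 219.8, 280.1, 200.1, 299 and 204 CPM in IL-15 tumours 1 to 5, with a log2 fold change of 0.036 ± 0.16. Its tumours lay close together, and the groups overlapped. ALDH1A3, the gene of an enzyme that makes retinoic acid, ranged over 19.1 to 73.8 CPM, and both ends of that range were control tumours (log2 fold change -0.054 ± 0.34).

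Both genes of sugar metabolism had fold changes below 0, although that of SORD turned above 0 where upper quartile scaling or library size alone moved all genes upward, staying below their median. UAP1 encodes the enzyme that makes UDP-N-acetylglucosamine (ENSG00000117143, chromosome 1, 162561506 to 162599842). It measured 195, 248, 259.8, 195 and 323 CPM in control tumours 1 to 5 and 183, 347, 131, 259 and 135 CPM in IL-15 tumours 1 to 5. IL-15 tumour 2 was the highest of all, and IL-15 tumours 1, 3 and 5 lay below every control tumour, 1 only just. IL-15 tumour 4 lay within the control range (log2 fold change -0.21 ± 0.26). SORD, the sorbitol dehydrogenase gene, ranged over 193 to 346 CPM, with a log2 fold change of -0.013 ± 0.16. Its near-identical pseudogene copy SORD2P held 1085 counts against 43662 for SORD, so reads shared between the copies leave the SORD level uncertain.

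Among the 4 transport and trafficking genes, 3 had fold changes above 0. ANKH, whose product exports ATP and with it pyrophosphate (ENSG00000154122, chromosome 5, 14704800 to 14871785), measured 99.0, 74.9, 61.1, 48.4 and 73.5 CPM in control tumours 1 to 5 and 97.6, 50.6, 68.8, 92.7 and 140.1 CPM in IL-15 tumours 1 to 5. IL-15 tumour 5 was the highest and control tumour 4 the lowest (log2 fold change 0.33 ± 0.26). ABCC4, an efflux pump gene, ranged over 143 to 408 CPM, and IL-15 tumour 4 stood well above the other 4 IL-15 tumours (log2 fold change -0.062 ± 0.32). TPD52, a vesicle trafficking gene, ranged over 127 to 258 CPM, and TMEM50A, a membrane protein gene, over 26.6 to 33.9 CPM. Their log2 fold changes were 0.19 ± 0.19 and 0.13 ± 0.12.

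All 4 protease and ubiquitin pathway genes had fold changes above 0, with none past the test, although TMPRSS2 was below 0 on the log2 FPKM scale. TMPRSS2, the serine protease gene that is a common fusion partner of ETS genes in prostate cancer (ENSG00000184012, chromosome 21, 41464551 to 41531116), measured 1061, 638, 1226, 595 and 1201 CPM in control tumours 1 to 5 and 767, 747, 528, 1523 and 1332 CPM in IL-15 tumours 1 to 5. The lowest and the 2 highest values were from IL-15 tumours, and the groups overlapped (log2 fold change 0.053 ± 0.31, edgeR adjusted p = 0.982). ADAMTS1, a secreted metalloprotease gene (ENSG00000154734, chromosome 21, 26835747 to 26845409), measured 258, 294, 174, 669.9 and 62.6 CPM in control tumours 1 to 5 and 574, 252, 561, 396 and 359.6 CPM in IL-15 tumours 1 to 5. The control tumours spanned the whole range, with control tumour 5 lowest and control tumour 4 highest, and the IL-15 tumours lay within it (log2 fold change 0.56 ± 0.51). The value was 0.30 without control tumour 5 and 1.12 without control tumour 4. HERC3, a ubiquitin ligase gene, ranged over 69.6 to 175 CPM, and UBE2J1, a ubiquitin-conjugating enzyme gene of the endoplasmic reticulum, over 48.4 to 70.3 CPM. Their log2 fold changes were 0.16 ± 0.27 and 0.14 ± 0.12.

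The 4 genes of chromosome and DNA function were 3 above and 1 below 0. NCAPD3, a condensin subunit gene, stood at 176 CPM in IL-15 tumour 4 and at 37.1 to 98.8 CPM in the other 9 tumours. Its log2 fold change of 0.033 ± 0.39 was -0.12 with limma voom and -0.18 with a replicate block. XRCC5, the Ku subunit gene of DNA end joining, ranged over 252 to 441 CPM with IL-15 tumour 2 highest (log2 fold change 0.13 ± 0.16). CENPN, a centromere protein gene, ranged over 64.8 to 204 CPM (log2 fold change -0.20 ± 0.25), and MPHOSPH9, a centriole protein gene, over 42.4 to 88.2 CPM (log2 fold change 0.080 ± 0.19). Several genes overlap a neighbour on the opposite strand that holds many counts, namely NCAPD3 (VPS26B), TMEM50A (RSRP1), MPHOSPH9 (C12orf65), CENPN (CMC2), PLPP1 (MTREX) and ALDH1A3 (AC015712.2). The sources used here do not say whether the counting used strand, so these 6 values are uncertain.

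Single tumours set much of the variation. IL-15 tumour 4 held the highest value of 13 of the 32 genes and the lowest of none, and 27 of the 32 stood above their own mean in it. IL-15 tumour 3 held the lowest value of 9 genes. These counts were not made over all tested genes, so they do not show whether these tumours stood apart in the 32 alone. The median deviation of the 32 genes from their own means was 0.42 on the log2 scale in IL-15 tumour 4, 0.28 in IL-15 tumour 2 and between -0.14 and 0.065 in the other 8 tumours. In IL-15 tumour 4 the KLK3 level was also the highest of the 10 (7449.8 CPM). The T and NK cell sum of that tumour was 38.6 CPM, below those of IL-15 tumours 1 (74.7 CPM) and 3 (48.5 CPM), in which 12 and 14 genes stood above their own means. The part of lymphocyte content in these values was not tested.

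**Figure D3:**
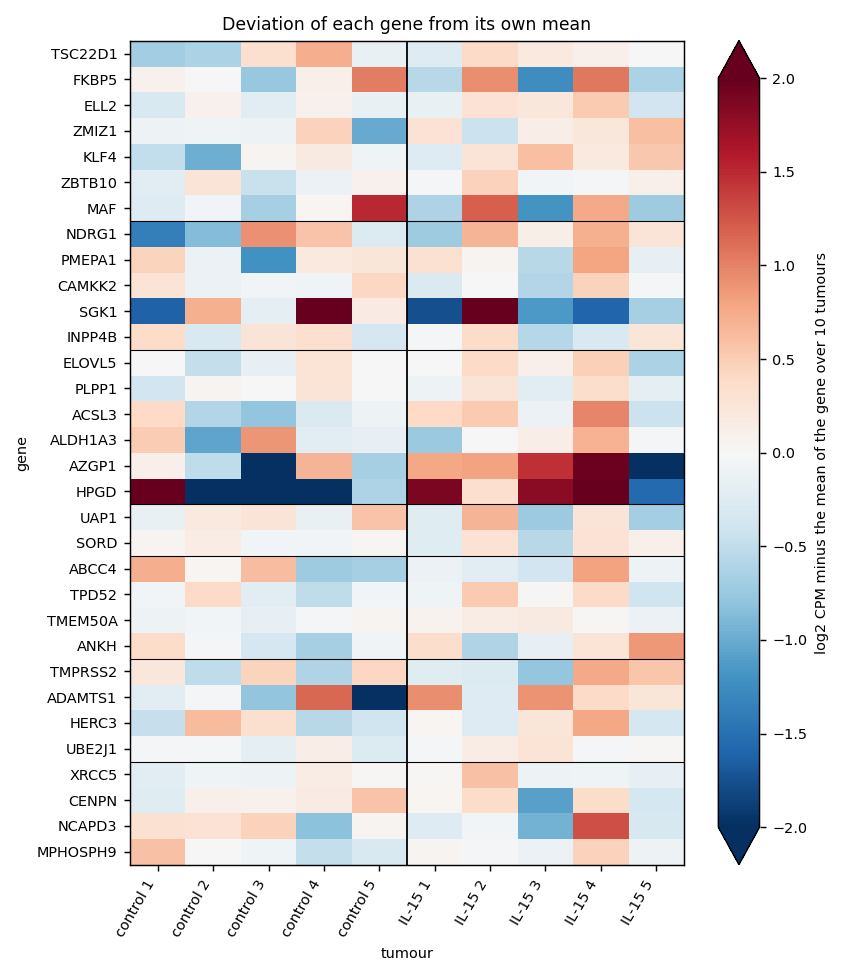
Log2 CPM of each gene minus its own mean over the 10 tumours (red above, blue below, colours end at ± 2), with genes in rows by role and tumours in columns, controls left of the line. The column of IL-15 tumour 4 is red for 27 of 32 genes. HPGD, SGK1, AZGP1 and, in control tumour 5, ADAMTS1 reach the end of the colour scale.

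The within-group SD, pooled over both groups, had a median of 0.48 on the log2 scale for the 32 genes and 0.35 for all tested genes, and 22 of the 32 lay above the latter. Of all tested genes, 30.4% had an SD above the median of the 32. HPGD (2.15), SGK1 (1.84) and AZGP1 (1.43) varied most between tumours of 1 group, followed by ADAMTS1 (0.95), MAF (0.93) and FKBP5 (0.85). TMEM50A (0.10) and UBE2J1 (0.15) varied least. The ratio of the highest to the lowest tumour was under 2 for 8 genes and over 4 for 9.

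**Figure D4:**
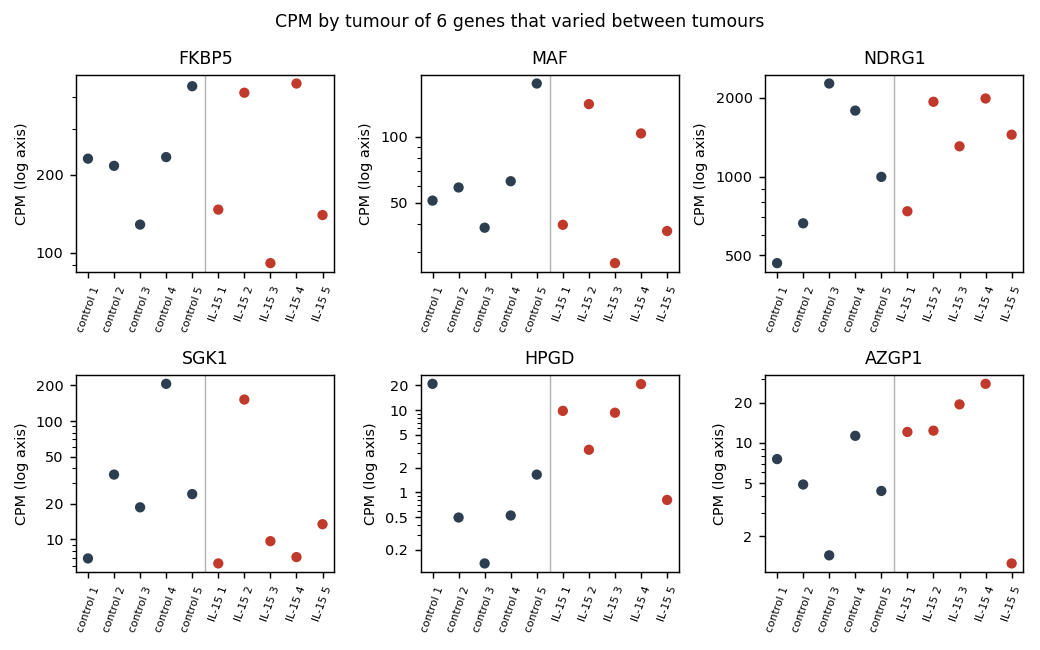
CPM (log axis) of 6 genes in each of the 10 tumours, control tumours in dark blue and IL-15 tumours in red. FKBP5 and MAF are highest in control tumour 5 and IL-15 tumours 2 and 4, SGK1 in control tumour 4 and IL-15 tumour 2, and HPGD in control tumour 1 and IL-15 tumour 4.

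Over the 10 tumours, 320 of the 496 pairs of these genes had a correlation above 0, and 1 pair passed on Pearson's r after adjustment over the 496 pairs. These pairs were computed after the genes' values had been seen, and the share above 0 was not computed for other genes. That pair was FKBP5 and MAF, with Pearson's r = 0.96 (permutation p = 4.00e-05, adjusted p = 0.0198) and Spearman's rho = 0.94 (permutation p = 1.80e-04, adjusted p = 0.0446). MAF was named for this pair. On Spearman's rho CENPN and MAF passed as well (rho = 0.95, permutation p = 1.10e-04, adjusted p = 0.0446). With group means removed r was 0.96, and without the 2 tumours furthest from the median of FKBP5 it was 0.97. Control tumour 5 and IL-15 tumours 2 and 4 stood apart from the other 7 in both genes, and r over those 7 was 0.97. That value is a description with no test, since both the pair and the 3 tumours were picked from these values. All correlations are on log2 CPM with 100000 permutations, and the points share a library and its scaling factor.

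Each gene was also set against a readout outside the 32, KLK3 for the androgen response and the summed CPM of 16 hypoxia genes for low oxygen, 64 correlations in all. KLK3 measured 6043, 3329.7, 4114, 4777 and 5453 CPM in control tumours 1 to 5 and 5993, 3848, 5721, 7449.8 and 4908 CPM in IL-15 tumours 1 to 5. The hypoxia sum was 2051, 2759, 5159, 3798 and 3331 CPM in control tumours 1 to 5 and 2509.5, 4061, 3630.0, 3776 and 4587 CPM in IL-15 tumours 1 to 5. The sum was low in control tumours 1 and 2 and IL-15 tumour 1 and highest in control tumour 3, and the groups overlapped. NDRG1 followed the hypoxia sum, with Pearson's r = 0.93 (permutation p = 2.10e-04, adjusted p = 0.0134) and Spearman's rho = 0.88 (permutation p = 0.00183, adjusted p = 0.117). Without control tumour 1 and IL-15 tumour 1, the 2 furthest from the median, r was 0.83, and within groups it was 0.97 in control and 0.81 in IL-15 tumours. With KLK3 the r of NDRG1 was -0.085 (permutation p = 0.811), which became -0.86 without control tumour 2 and IL-15 tumour 4, the 2 furthest from the KLK3 median. NDRG1 with the hypoxia sum was the only one of the 64 correlations to pass after adjustment on Pearson's r. The hypoxia list, like the members, was chosen with earlier results of these data known.

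TSC22D1 and KLF4 had the next highest correlations with the hypoxia sum. TSC22D1 had Pearson's r = 0.77 (permutation p = 0.00953, adjusted p = 0.247) and Spearman's rho = 0.78 (permutation p = 0.0109, adjusted p = 0.174), and KLF4 an r of 0.70 (permutation p = 0.0256, adjusted p = 0.409). The lowest were HPGD (-0.56), PMEPA1 (-0.54) and MPHOSPH9 (-0.49), with adjusted permutation p-values of 0.739 or more. FKBP5 had an r of -0.094.

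With KLK3, 19 of the 32 genes had an r above 0, and none passed after adjustment, including the 3 with an unadjusted permutation p under 0.05. HPGD was the highest, with Pearson's r = 0.76 (permutation p = 0.0116, adjusted p = 0.247) and Spearman's rho = 0.84 (permutation p = 0.00395, adjusted p = 0.118), and r was 0.68 without control tumour 2 and IL-15 tumour 4. ACSL3 (0.65) and PMEPA1 (0.54) followed. The lowest HPGD value, 2 counts in control tumour 3, lay under the floor of 3 counts. SGK1 was the lowest, with Pearson's r = -0.64 (permutation p = 0.0443, adjusted p = 0.473) and Spearman's rho = -0.82 (permutation p = 0.00551, adjusted p = 0.118). XRCC5 (-0.37) and ZBTB10 (-0.36) also lay below 0. FKBP5, an established androgen target, had an r of 0.094 with KLK3, which was -0.25 without those 2 tumours. Of the 32 genes, 9 had an r above 0 once control tumour 2 and IL-15 tumour 4 were left out. Neither share was computed over all tested genes, so both counts describe the 32 alone.

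**Figure D5:**
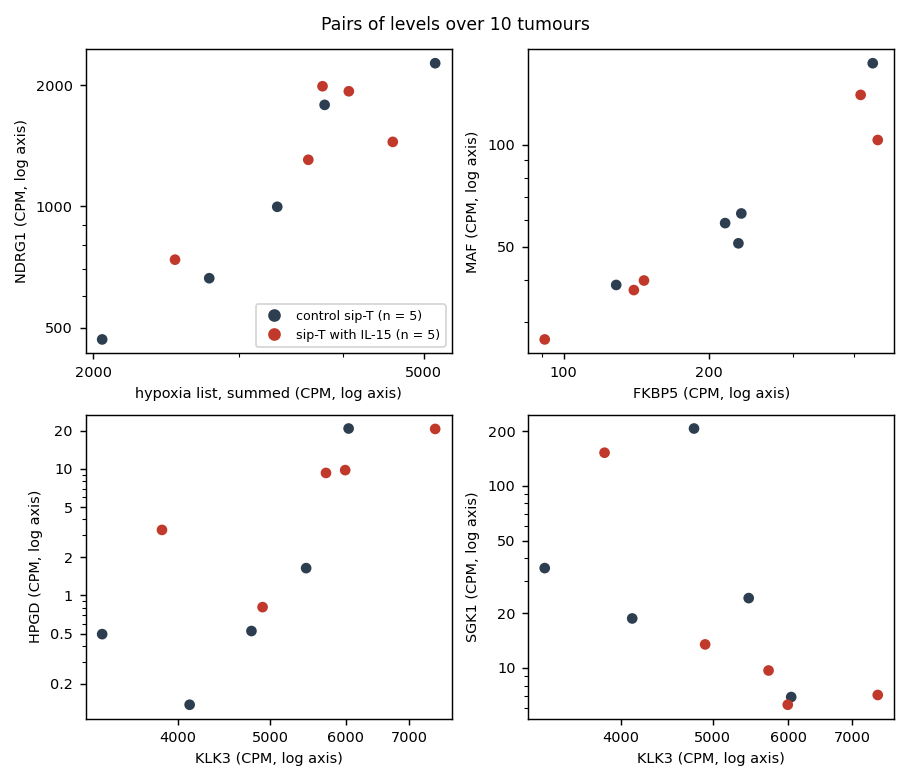
CPM of 4 pairs in the 10 tumours (all axes log), control tumours in dark blue and IL-15 tumours in red. NDRG1 rises with the hypoxia sum (r = 0.93) and MAF with FKBP5 (r = 0.96), HPGD is higher where KLK3 is higher (r = 0.76), and SGK1 lower (r = -0.64).

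A further 65 genes known to be induced by androgen included 35 with a fold change above 0 and 30 with one below it (median 0.0066 on the log2 scale), and 0 were called by edgeR, DESeq2 or limma voom. Those with the smallest p were SEC24D, a gene of vesicle coats (log2 fold change -0.46 ± 0.17), the kinase gene MAK (0.61 ± 0.23), the ETS factor gene ELK4 (0.40 ± 0.15) and the steroid dehydrogenase gene HSD17B14 (0.87 ± 0.37), each with an edgeR adjusted p of 0.758. Of 9 genes known to be lowered by androgen, 5 had fold changes above 0 and 4 below. The smallest p was that of FOLH1, which encodes the prostate-specific membrane antigen and measured 729 ± 146 CPM over the control tumours and 480.1 ± 53.1 CPM over the IL-15 tumours (SD, n = 5 each, log2 fold change -0.60 ± 0.16, edgeR adjusted p = 0.758). Next were BCHE, the butyrylcholinesterase gene, at 11.6 ± 8.37 CPM over the control tumours and 4.53 ± 2.33 CPM over the IL-15 tumours, CAMK2N1, a kinase inhibitor gene, at 829 ± 218 CPM over the control tumours and 515 ± 249 CPM over the IL-15 tumours (SD, n = 5 each), and PEG10, a retrotransposon-derived gene, with a log2 fold change of 1.68 ± 0.99. None of these 4 passed the test. The mineralocorticoid receptor gene NR3C2 varied from 5.44 to 50.7 CPM and was highest in control tumour 4, which also held the highest SGK1 level. In IL-15 tumour 2, the other tumour with high SGK1, NR3C2 stood at 21.7 CPM, and in control tumour 2 at 38.7 CPM. The part of this receptor in the SGK1 level was not tested. Among 8 glucocorticoid-induced genes, which include FKBP5 and SGK1, 4 had fold changes above 0, and ZBTB16, a zinc finger gene, had the smallest p (log2 fold change -0.69 ± 0.22, edgeR adjusted p = 0.758).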

How the data were processed

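Tumour RNA was isolated with TRIzol for Illumina sequencing, per the labels' protocols. Build hg38, featureCounts 1.5.0-p3, HISAT2 2.0.5 and fastp are listed, without roles, in the submitters' processing notes. The sources used here give neither strandedness, annotation release nor any removal of mouse reads. The labels name mouse as the organism, while the table holds human genes. The deposited counts are raw whole numbers per gene, and the deposited FPKM values equal count over gene length and 1 factor per library, per the file headers and values. The library total implied by that factor was 1.007 to 1.242 times the count total, and its definition is not stated. The authors' group means were not used.

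Genes passing filterByExpr (minimum count 10) were scaled by TMM and tested with edgeR 4.0.16 (quasi-likelihood, robust, R 4.3.3), with Benjamini-Hochberg adjustment over all 16913. Standard errors came from the fold change and its F statistic. Correlations used log2(CPM + 0.1). DESeq2 1.42.0, limma 3.58.1, other scalings and filters, FPKM, a replicate block and each library left out were alternatives. On simulated counts for this comparison edgeR recovered 59.4% of 96 changes of 2-fold and 89% of 100 changes of 4-fold among 16567 genes, with 10 false calls. Libraries differed beyond counting noise in all 45 pairs (chi-square over its degrees of freedom 20.4 to 90.3). Replicate numbers did not pair the tumours. The members and lists were chosen with earlier results of these data known. Values in every tumour are given for the 10 largest fold changes, the 6 highest FPKM and the 3 highest SDs, plus FKBP5 and MAF, the latter named after its values were seen. CCN3 was matched under its former symbol. No human sequence was used here. All 32 members are reported, and a gene outside them, from a comparison list, is not reported here.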

Additional observations from a re-analysis of the deposited data

Results flagged for a closer look

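In 4 of 64 groups of 5 tumours, 1 tumour stood apart from the other 4 on the log2 CPM scale, its gap to the nearest exceeding 0.71 of the whole range. Chance gives about 1 in 20 such groups. All 4 were IL-15 groups. ABCC4 in IL-15 tumour 4 stood at 408 CPM against 179 to 218 CPM (gap 0.763 of the range). XRCC5 in IL-15 tumour 2 stood at 441 CPM against 263 to 301 CPM (0.739). SGK1 in IL-15 tumour 2 stood at 152 CPM against 6.27 to 13.5 CPM (0.762). AZGP1 in IL-15 tumour 5 stood at 1.25 CPM against 12.1 to 27.7 CPM (0.727). The cause was not tested for any of them.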

How the results depend on the processing

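No member was called by edgeR under any scaling, filter, block or left-out library. DESeq2 and limma (voom and log2 FPKM) were run on all 10 tumours only and called no member. DESeq2 gave SGK1 no adjusted p. Over all genes edgeR called 1 with no filter on low counts (MALINC1, adjusted p = 0.00632) and DESeq2 called 15, against 0 in the main test. Replicate numbers gave correlations of -0.22 to 0.26 between same-numbered tumours, and 2 of 10 tumours correlated best with their own number. With the replicate block edgeR called 0 genes, and 22 members were above 0 with a median of 0.13. With 1 tumour left out, 16 to 27 members were above 0. Without the 2 tumours furthest from the KLK3 median, 9 members had a positive r with KLK3, and that of FKBP5 was -0.25. The sign of a log2 fold change near 0 turned as follows, none past the test. Under upper quartile scaling and library size alone the median of all genes was 0.038 and 0.077, and each member named under them stayed below that median. FKBP5 was 0.013 with upper quartile scaling, 0.050 with library size alone, 0.012 without a filter, 0.00858 with a mean of at least 1 CPM and 0.00853 with protein-coding genes alone. SORD was 0.024, 0.055, 0.00266 and 0.012 with upper quartile scaling, library size alone, a mean of at least 1 CPM and protein-coding genes alone. ABCC4 was 0.00133 with library size alone. ALDH1A3 was 0.023 with library size alone, 0.026 with the replicate block, 0.020 with limma voom and 0.00583 on log2(FPKM + 0.1). NCAPD3 was -0.18 with the replicate block, -0.12 with limma voom, -0.13 on log2(FPKM + 0.1) and -0.11 on log2(FPKM + 1). TMPRSS2 was -0.00577 and -0.00543 on those FPKM scales. With 1 tumour left out, the log2 fold changes ran over these ranges: ABCC4 -0.33 to 0.14, ALDH1A3 -0.26 to 0.22, FKBP5 -0.33 to 0.30, HERC3 -0.055 to 0.37, INPP4B -0.23 to 0.0013, MAF -0.56 to 0.40, MPHOSPH9 -0.036 to 0.27, NCAPD3 -0.48 to 0.23, PLPP1 -0.056 to 0.11, PMEPA1 -0.067 to 0.29, SGK1 -2.68 to 0.83, SORD -0.093 to 0.11, TMPRSS2 -0.16 to 0.22, TSC22D1 -0.055 to 0.33 and XRCC5 -0.024 to 0.18. The r ran over -0.23 to 0.30 for FKBP5 with KLK3, -0.21 to 0.087 for FKBP5 with the hypoxia sum and -0.44 to 0.11 for NDRG1 with KLK3. The cause of these turns was not tested. The other 17 members kept their sign in every alternative. At 5 tumours a group edgeR recovered 59.4% of simulated 2-fold changes, so smaller differences can be missed. Promoter motifs were not run, since no human sequence was used here.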
